A study of Mus musculus with 8 samples.

Results

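The response of hepatocytes lacking transglutaminase 2 to ethanol was measured on 4 of the 8 arrays of the series. These are the 2 arrays, A and B, of knockout cells given 100 mM ethanol and the 2 of knockout cells given none, as the sample titles assign them. Primary hepatocytes, the metabolic cells of the liver taken into short-term culture, came from transglutaminase 2 knockout mice (strain C57BL6/129SVJ) and were incubated for 15 h with or without the alcohol. All 4 arrays therefore share the deletion, and the other 4 arrays repeat both treatments in wild-type hepatocytes of the same strain. The labels give neither the sex and age of the mice nor the part of the gene that was deleted, and do not state whether arrays A and B stem from different mice or cultures. The p-values thus measure the spread between these arrays, which may be technical. Each array gave 1 fluorescence intensity per probe set, a group of short probes against 1 transcript. Of 18193 genes on the array, 11519 passed a filter on low signal and were tested, each through its brightest probe set. A gene was called when limma's Benjamini-Hochberg adjusted p was under 0.05 and both ethanol arrays lay on the same side of the untreated mean. Changes are given as differences of log2(intensity + 16) with the model's SE, and n is 2 arrays per group throughout.

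Hepatocytes clear ethanol by oxidising it first to acetaldehyde and then to acetate, which raises the ratio of NADH to NAD+ in the cell. In the liver this is known to alter gluconeogenesis, fat oxidation and fat synthesis, and to put load on the endoplasmic reticulum and on antioxidant systems. Transglutaminase 2 crosslinks proteins through glutamine and lysine side chains, and one of its substrates is Sp1, a transcription factor that binds GC-rich promoters.

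The promoters of the 2 genes that rose most and the 2 that fell most are shown, because these 4 genes frame the response. They are RefSeq sequences of assembly GRCm38.p6 from 250 bases before to 50 bases after the start of transcription, on the gene's strand. Capitals mark letter matches, on either strand, to one of the motifs GGGCGG (GC box), TGATGNAAN (CARE, bound by ATF4 and C/EBP factors), TGACNNNGC (ARE core, bound by NRF2), CCAAT, TGACGTCA (CRE), CACGTG (E-box), TTATGNAA (D-box) and GGGNN followed directly by TTTCC (kB motif, bound by NF-kB). The kB motif was added after the sequences had been seen. Tcl1b3 lies at chr12:105190795-105191094, G6pc at chr11:101367466-101367765, Serpinb2 at chr1:107511173-107511472 (the first of 2 entries) and Cxcl3 at chr5:90785851-90786150, all on the + strand.
Tcl1b3: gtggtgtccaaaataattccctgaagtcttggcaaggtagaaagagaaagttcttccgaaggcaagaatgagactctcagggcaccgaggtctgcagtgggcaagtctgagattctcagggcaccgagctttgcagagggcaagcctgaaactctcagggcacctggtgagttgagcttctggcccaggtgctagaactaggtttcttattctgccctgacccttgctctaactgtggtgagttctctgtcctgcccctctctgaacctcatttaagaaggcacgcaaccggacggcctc
G6pc: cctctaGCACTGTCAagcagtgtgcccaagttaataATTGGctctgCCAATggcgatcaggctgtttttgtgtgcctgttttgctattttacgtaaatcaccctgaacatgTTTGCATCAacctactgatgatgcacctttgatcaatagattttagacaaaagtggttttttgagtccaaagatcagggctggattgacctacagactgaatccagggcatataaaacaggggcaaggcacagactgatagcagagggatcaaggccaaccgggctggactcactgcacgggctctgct
Serpinb2: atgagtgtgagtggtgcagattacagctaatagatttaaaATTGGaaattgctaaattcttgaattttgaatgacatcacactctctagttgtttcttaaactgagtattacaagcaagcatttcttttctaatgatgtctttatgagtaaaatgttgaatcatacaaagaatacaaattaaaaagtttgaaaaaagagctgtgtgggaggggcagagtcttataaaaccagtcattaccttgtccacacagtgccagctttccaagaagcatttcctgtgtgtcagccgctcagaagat
Cxcl3: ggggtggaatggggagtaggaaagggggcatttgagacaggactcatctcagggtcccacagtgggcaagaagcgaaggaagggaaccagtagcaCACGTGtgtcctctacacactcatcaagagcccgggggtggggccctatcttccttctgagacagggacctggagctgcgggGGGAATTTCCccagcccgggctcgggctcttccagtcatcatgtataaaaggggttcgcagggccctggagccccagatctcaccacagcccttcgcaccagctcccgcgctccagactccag
The Tcl1b3 window held none of these motifs. The G6pc window held an ARE core at bases 7 to 15, CCAAT boxes at bases 37 to 41 and 47 to 51 and a CARE at bases 112 to 120. The Cxcl3 window held an E-box at bases 96 to 101 and a kB motif at bases 178 to 187. Among promoters of genes called lower, 2.61% of 882 held the kB motif, against 1.34% of 1196 among genes called higher, 1.62% of 9358 among tested genes and 1.62% of all 27025 promoters. The CARE was in 3.01% of genes called higher and 2.27% of those called lower, against 2.30% of tested genes and 4.04% of all promoters. For the GC box, to which Sp1 binds, the shares were 66.8% in both directions, 63.1% of tested genes and 35.9% of all promoters. The other shares, for genes called higher, called lower and tested, were 15.1%, 16.6% and 14.8% for the ARE core, 39.6%, 36.1% and 38.2% for CCAAT, and 11.4%, 11.3% and 10.4% for the E-box. Over all promoters these 3 motifs were in 12.5%, 37.9% and 7.24%. The CRE was in 3.43%, 2.95% and 3.14% and the D-box in 2.09%, 1.93% and 1.97%, with 1.88% and 3.52% over all promoters. These are letter matches and not binding sites.

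The targeted gene was at a small part of its wild-type signal in both knockout groups. Tgm2 read 378 and 368 without ethanol and 704 and 628 with it in knockout cells, and 16656 and 16836 in untreated and 16836 and 16836 in ethanol-treated wild-type cells, near the top of the scale. All 4 knockout arrays thus carried the label's genotype. The residual signal was higher with ethanol by 0.81 ± 0.073 (adjusted p = 0.00035), and 3 of its 5 tested probe sets were called higher. Whether these probes lie within the deleted part is not known here. Sp1, the transglutaminase 2 substrate, read 756 and 717 without ethanol and 677 and 738 with it and was not called (-0.06 ± 0.13, adjusted p = 0.79). Sp3, a related factor, read 485 and 398 without ethanol and 217 and 345 with it (-0.65 ± 0.2, adjusted p = 0.052). It was not called, but gained a call under 7 of 23 alternatives. In wild-type cells Sp3 was called lower with ethanol (-0.89 ± 0.2, limma adjusted p = 0.041). Met, the hepatocyte growth factor receptor, read 967 and 1061 without ethanol and 911 and 953 with it (-0.12 ± 0.083, adjusted p = 0.35).

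Ethanol changed 2551 of the 11519 tested genes in knockout cells (22.1%), of which 1453 rose (12.6%) and 1098 fell (9.53%). In every one of the 2551, both ethanol arrays lay beyond both untreated arrays. Both ethanol arrays lay on 1 side of the untreated mean in 8756 genes (76%), called or not, and beyond both untreated arrays in 3741 genes above (32.5%) and 3277 below (28.4%). Changes of at least 2-fold were present in 152 of the genes that rose (1.32% of those tested) and 122 of those that fell (1.06%). The median change was 0.59 among the former 1453 and -0.59 among the 1098, against 0.04 for all tested genes.

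In called genes the 2 ethanol arrays moved the same way, as the call rule requires, but to unequal extents. Among genes that rose, the median distance from the untreated mean was 0.65 on array A and 0.53 on array B, and A lay further out in 1054 of 1453. Among genes that fell, the medians were -0.66 and -0.50, and A lay further out in 831 of 1098. Across all tested genes, the changes of ethanol array A over untreated array A and of B over B had a Pearson r of 0.492, and with the untreated arrays exchanged 0.476, as a description over 11519 genes. The SD of the difference between the 2 arrays of a group was 0.483 with ethanol and 0.319 without. Measured from the untreated mean, the SD of the change was 0.626 on ethanol array A and 0.406 on B. In log2 intensity over tested probe sets, ethanol array B was closer to both untreated arrays (r = 0.973 each) than to ethanol array A (0.965). Ethanol array A had r = 0.940 and 0.939 with the untreated arrays.

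**Figure D1:**
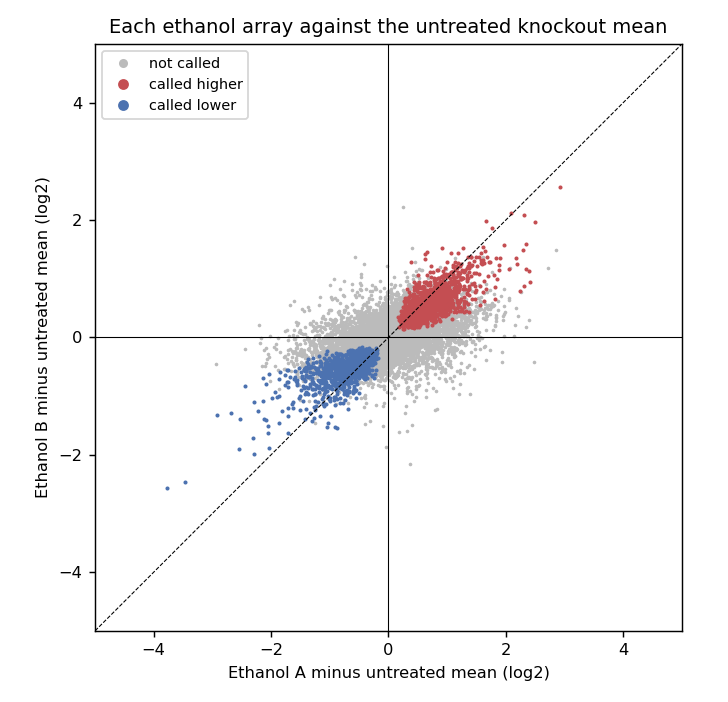
Change of each tested gene on ethanol array A (horizontal axis, log2) and ethanol array B (vertical axis, log2), both against the mean of the untreated knockout arrays; red and blue points are genes called higher and lower, grey points are genes not called, and the dashed line marks equal change. The 1453 red and 1098 blue points lie in the 2 quadrants of equal sign, which the call rule requires, and array A lies further from 0 in 1054 of the red and 831 of the blue.

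Several features of the arrays move with these groups. The trimmed mean intensity before normalisation was 113 and 117 on the untreated arrays, 117 on ethanol array A and 341 on ethanol array B. The bioC spike-in over the bioB spike-in, RNAs added in fixed amounts before hybridisation, was 2.98 and 3.14 untreated, 1.06 on ethanol array A and 3.0 on ethanol array B. Array A thus matched the untreated arrays in brightness and B matched them in the spike-ins. For ethanol array B the treatment text describes a control incubation, whereas its title and source name give 100 mM. Counting both B ethanol arrays, knockout and wild type, as untreated leaves only ethanol array A in each genotype. Most of the genes named in this report then lost their call. The ratio of 3′ to 5′ probe signal of Pcx, a control for RNA length, was 10.6 and 8.69 untreated and 4.91 and 5.45 with ethanol, whereas that of Gapdh was 0.78 and 0.771 untreated and 0.826 and 0.839 with ethanol and that of Actb 1.25 and 1.24, then 1.23 and 1.15. A fit with the spike-in ratio, split at 2, as a term called 2195 genes and kept 2054 of the 2551. Trimmed-mean scaling in place of quantile normalisation called 2744. Beyond these fits, the part of the features in the results was not tested. With ethanol array A left out, so that array B alone stood for ethanol, 1912 genes were called, and 1661 of the 2551 kept their call and direction. With ethanol array B left out, 4320 were called and 2396 of the 2551 were kept. Without untreated array A the count was 940 and without untreated array B 952, keeping 911 and 921 of the 2551. A variance prior without an intensity trend gave 1184, and a fit to the 4 knockout arrays alone 1409. Of 161 genes followed over the alternatives, 37 lost their call without untreated array A, 41 without untreated array B, 42 without the trend and 14 in the knockout arrays alone.

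The 12 largest increases included liver genes such as G6pc and genes of low signal. G6pc, the catalytic subunit of glucose-6-phosphatase, which releases glucose from hepatocytes, read 20.9 and 30 without ethanol and 216 and 144 with it. It rose by 2.23 ± 0.21 (adjusted p = 0.0004). Slc25a47, a mitochondrial carrier of hepatocytes, read 1001 and 907 without ethanol and 4776 and 4113 with it. Apoa5, an apolipoprotein that lowers plasma triglyceride, read 540.1 and 568 without ethanol and 1922 and 2066 with it. In both genes the ethanol arrays lay far above the untreated ones with little spread, which gave the smallest adjusted p (5.5e-06) for changes of 2.20 ± 0.088 and 1.82 ± 0.072. Foxa2, a forkhead factor of liver development and fasting, read 42.5 and 58.1 without ethanol and 243 and 179.9 with it and rose by 1.77 ± 0.19 (adjusted p = 0.00058).

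Tcl1b3, a Tcl1 family gene, rose most of the 12. It read 343 and 518 without ethanol and 3308 and 2562 with it, a rise of 2.74 ± 0.25 (adjusted p = 0.00035). Its 1 tested probe set is of a type whose probes may also match other sequences, so the source of the signal is uncertain. E2f5, a repressor of the E2F family, read 304 and 282 without ethanol and 1559.6 and 674 with it, but of its 3 tested probe sets 1 was called higher and 1 lower. The other 6 genes among the 12 highest were Dhrsx (2.11), Hdac11 (1.97), Ccdc180 (1.89), Gprin3 (1.82), Cnnm1 (1.76) and Faim2 (1.76). On the untreated arrays these 6 were dim, the highest value being 72.4 for Hdac11 on array A. Dhrsx (15.7 and 6.74), Cnnm1 (15.5 and 6.04) and Faim2 (10.1 and 8.81) read there below the dimmest tested mean, 22.5. They passed the filter on low signal only through their ethanol arrays, so their place among the largest increases depends on that filter. Cnnm1 lost its call when the knockout arrays were fitted alone and, like Faim2 and Hdac11, without untreated array B.

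The 12 largest decreases were in genes of several kinds, of which Serpinb2 and Cxcl3 fell most. Serpinb2, an inhibitor of plasminogen activators made by inflamed cells, read 429 and 444 without ethanol and 17.2 and 60.1 with it. It fell by 3.17 ± 0.37 (adjusted p = 0.0008), and both ethanol arrays lay far below both untreated ones. Cxcl3, a chemokine that attracts neutrophils, read 1610.3 and 1529 without ethanol and 128 and 271 with it, a change of -2.96 ± 0.3 (adjusted p = 0.0005). Ackr3, a scavenger receptor for CXCL12, read 253 and 227 without ethanol and 27.6 and 52.4 with it (-2.23 ± 0.28). Thbs1, thrombospondin 1, an activator of latent TGF-beta, read 809.6 and 802 without ethanol and 152 and 191 with it (-2.14 ± 0.14, adjusted p = 8.9e-05).

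The rest of the 12 lowest included the inflammatory mediators Ccl20, Nos2 and Csf2 and the proteases Mmp13 and Mmp24. Nos2, inducible nitric oxide synthase, read 222 and 309.8 without ethanol and 51.5 and 74.2 with it (-1.84 ± 0.29). Csf2, the growth factor GM-CSF, read 659 and 615 without ethanol and 142 and 214 with it (-1.78 ± 0.21). Ccl20, a chemokine for CCR6-bearing cells, read 130.3 and 104 without ethanol and 4.71 and 38 with it (-1.99 ± 0.44), and here ethanol array A was at 4.71. Ccl20 passed the filter on low signal only through its untreated arrays, so its place among the largest decreases depends on that filter. The collagenase gene Mmp13 changed by -1.96 ± 0.32, the membrane protease gene Mmp24 by -2.12 ± 0.43, the serotonin receptor gene Htr2b by -1.96 ± 0.45, AA467197 by -2.01 ± 0.25 and the zinc finger gene Zfp995 by -1.76 ± 0.3. With ethanol array A left out, Htr2b was no longer called, at -1.89.

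**Figure D2:**
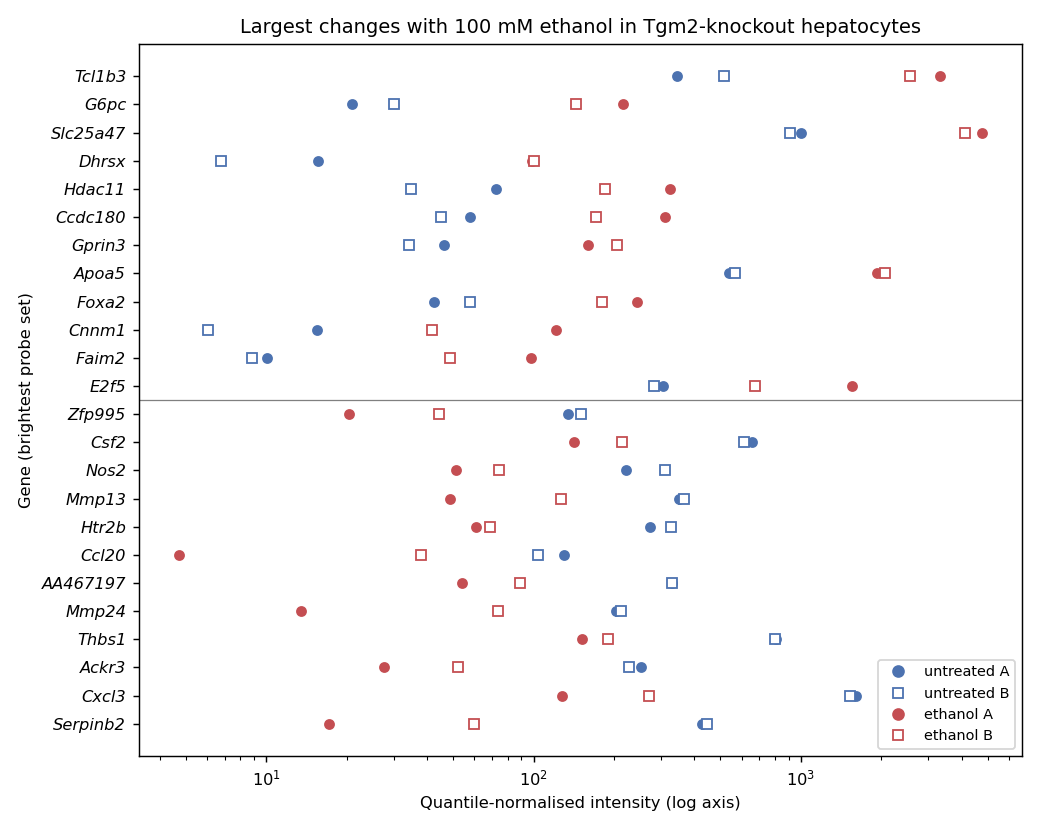
Quantile-normalised intensity (horizontal log axis) of the 12 genes that rose most and, below the line, the 12 that fell most; each point is 1 array, blue untreated and red with ethanol, filled for A and open for B. In every row both red points lie on one side of both blue points, as in all 2551 called genes, and in 21 of the 24 rows the filled red point is the one further from blue.

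Genes for making and releasing glucose rose more often than they fell. Of 19 tested genes of the list, 10 rose and none fell, with a median of 0.41. Over all tested genes 12.6% were called higher and 9.53% lower, and the counts of this and the following lists stand beside those shares. Gcgr, the glucagon receptor, read 188 and 209 without ethanol and 574 and 512 with it and rose by 1.38 ± 0.12 (adjusted p = 0.00033). Pcx, pyruvate carboxylase, which makes oxaloacetate from pyruvate, rose from 997 and 1074 to 1573 and 1692 (0.65 ± 0.077). Fbp1, fructose-1,6-bisphosphatase, rose from 5920.4 and 6156 to 7870.1 and 8159 (0.41 ± 0.061), though under trimmed-mean scaling it was not called (0.13). From ethanol array B alone the list again had 10 higher and 0 lower, and from array A alone 9 and 1.

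In amino acid catabolism and the methionine cycle more genes were called higher than over all tested genes (12.6%), though most members of each list were not called higher. Of 28 genes of urea synthesis and amino acid breakdown, 13 rose and 1 fell (median 0.28). Arg1, arginase, the last enzyme of the urea cycle, read 1620.4 and 1680.2 without ethanol and 2454 and 2369.6 with it (0.54 ± 0.088). Gpt, alanine aminotransferase, went from 1296 and 1269 to 2155 and 1955 (0.67 ± 0.1), Prodh, proline dehydrogenase, by 0.68 ± 0.1 and Fah, the last enzyme of tyrosine breakdown, by 0.51 ± 0.071. The 1 gene that fell was Otc, the urea cycle's ornithine transcarbamylase (-0.27 ± 0.064, adjusted p = 0.017), and it was not called in the knockout arrays alone. Of 22 genes of the methionine cycle and methyl transfer, 9 rose and none fell (median 0.34). Ahcy, which clears S-adenosylhomocysteine, read 5329.9 and 5325 without ethanol and 7881 and 7765 with it (0.55 ± 0.058, adjusted p = 0.00058). Sardh, sarcosine dehydrogenase, read 968 and 1029 without ethanol and 2307 and 2067 with it (1.12 ± 0.13). The methyltransferases of creatine and phosphatidylcholine synthesis, Gamt (0.85 ± 0.098) and Pemt (0.62 ± 0.077), rose as well.

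Lipid genes changed in both directions. Of 28 genes of fatty acid oxidation and PPAR-alpha targets, 9 rose and 1 fell (median 0.16). Cpt2, the inner carnitine palmitoyltransferase, read 317 and 304 without ethanol and 525 and 564 with it (0.78 ± 0.1). The dehydrogenase gene Acads (0.72 ± 0.1) and the thiolase genes Acaa2 (0.46 ± 0.076) and Acaa1b (0.49 ± 0.085) followed, the latter pair not being called under trimmed-mean scaling (0.30 and 0.09). Hadhb, a subunit of the trifunctional protein, was the 1 that fell (-0.29 ± 0.078).

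Of 28 genes of fatty acid and triglyceride synthesis, 11 rose and 4 fell (median 0.16). Thrsp, a lipogenic nuclear protein, read 984 and 977 without ethanol and 2546 and 2297 with it (1.29 ± 0.081, adjusted p = 8.6e-05). Fasn, fatty acid synthase, read 1432 and 1372 without ethanol and 2451 and 2686 with it (0.86 ± 0.077, adjusted p = 0.00034), and Acaca, acetyl-CoA carboxylase, read 526 and 469 without ethanol and 833 and 726 with it (0.63 ± 0.1). The 4 that fell were Insig1, which retains SREBP in the endoplasmic reticulum (1898 and 1803 without ethanol and 940.0 and 1089 with it, -0.86 ± 0.097), the desaturase gene Fads1 (-0.33 ± 0.083), the elongase gene Elovl2 (-0.37 ± 0.11) and the phosphatidate phosphatase gene Lpin1 (-0.39 ± 0.12). The last 3 were not called from ethanol array B alone. Sterol synthesis was split, with 4 higher and 6 lower of 19 (median -0.11), against 12.6% and 9.53% over all tested genes. Tm7sf2, a sterol reductase, rose from 727 and 816 to 1811 and 1658 (1.15 ± 0.11) and Ebp, a sterol isomerase, by 0.51 ± 0.077. Idi1, isopentenyl diphosphate isomerase, fell from 1839 and 1860.5 to 1085 and 1190.3 (-0.69 ± 0.079) and Msmo1, a sterol oxidase, changed by -0.38 ± 0.065.

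On the lipid droplet, a pair of lipase inhibitors fell and a pair of lipases rose. G0s2, which inhibits the lipase ATGL, read 3415 and 3327 without ethanol and 1545 and 1548 with it (-1.12 ± 0.08, adjusted p = 0.00015). Hilpda, a second inhibitor of that lipase, read 3235 and 3282 without ethanol and 1728 and 1959 with it (-0.82 ± 0.088). Pnpla2, which encodes ATGL, read 201 and 214 without ethanol and 427 and 340.2 with it (0.83 ± 0.14) and Mgll, monoglyceride lipase, read 94.1 and 121 without ethanol and 274 and 233 with it (1.13 ± 0.19). Of the 3 tested probe sets of Mgll, 1 was called higher and 0 lower. In all, 5 genes of this list of 16 rose and 2 fell (median 0.28).

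Of 23 genes of bile acid synthesis and transport, 7 rose and none fell (median 0.19). Cyp8b1, which directs synthesis to cholic acid, read 96 and 93.7 without ethanol and 277 and 241 with it (1.31 ± 0.14, adjusted p = 0.00058). Abcb4, the canalicular phospholipid transporter, changed by 0.74 ± 0.13, Slc10a1, the bile acid uptake carrier, by 0.55 ± 0.1 and Hsd3b7, an enzyme of sterol ring modification, by 0.29 ± 0.065. Of 21 genes of apolipoproteins and lipoprotein assembly, Apoa5 included, 7 rose and none fell (median 0.13). Among them Scarb1, the HDL receptor, read 505 and 482 without ethanol and 913 and 854 with it (0.82 ± 0.092), Pltp, phospholipid transfer protein, read 1411 and 1362 without ethanol and 2352 and 2266 with it (0.73 ± 0.13) and Apoc2, the activator of lipoprotein lipase, read 1470.4 and 1533 without ethanol and 2110.0 and 1966 with it (0.44 ± 0.069).

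The main enzymes that oxidise ethanol or acetaldehyde did not pass the test. Adh1, the main hepatic alcohol dehydrogenase, read 7633 and 7476 without ethanol and 8242 and 8636 with it (0.16 ± 0.059, adjusted p = 0.09). Aldh2, which oxidises acetaldehyde in mitochondria, read 7808 and 7354 without ethanol and 8691 and 9758 with it (0.28 ± 0.1, adjusted p = 0.081). Cyp2e1, the microsomal ethanol oxidase, read 14542 and 15731 without ethanol and 13708 and 16206 with it (-0.02 ± 0.082) and Cat, catalase, read 9538 and 8952 without ethanol and 6156 and 10476 with it (-0.20 ± 0.19). The ethanol arrays of Cat lay on opposite sides of the untreated mean (-0.58 on A and 0.18 on B). These genes are among the brightest, and under trimmed-mean scaling Cyp2e1 (-0.67) and Cat (-0.71) were called lower. In all, Cat gained a call under 4 of 23 alternatives. Of the 20 genes of alcohol and aldehyde metabolism, 5 rose and 1 fell, or 5 and 4 under trimmed-mean scaling. Aldh1l1, a folate dehydrogenase, read 2803 and 2863 without ethanol and 5548 and 4887 with it (0.87 ± 0.074, adjusted p = 0.00026). The aldehyde dehydrogenases Aldh4a1 (0.74 ± 0.12) and Aldh9a1 (0.50 ± 0.074) and the reductase Akr1a1 (0.37 ± 0.068, 0.01 under trimmed-mean scaling) rose, and Aldh1a7 fell (-0.30 ± 0.074).

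Among 29 drug metabolism genes, 7 rose and none fell (median 0.15), or 5 and 5 under trimmed-mean scaling. The shares over all tested genes were 12.6% higher and 9.53% lower. Cyp2b10, a target of the nuclear receptor CAR, read 1169.5 and 1271 without ethanol and 3688 and 3084 with it (1.46 ± 0.1, adjusted p = 0.00012). Its 3 tested probe sets were all called higher. Cyp1a2, a target of the aryl hydrocarbon receptor, rose from 2598 and 2637 to 3808 and 3609 (0.50 ± 0.066), Cyp2d22 by 0.76 ± 0.099 and the glutathione transferase gene Gstm3 by 0.41 ± 0.069.

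Of the 51 respiratory chain subunits tested, 18 rose and 2 fell (median 0.16), but 10 and 9 were called under trimmed-mean scaling. The complex I genes Ndufb8 (1793 and 1778 without ethanol and 2657 and 2650.4 with it, 0.57 ± 0.067), Ndufv1 (0.45 ± 0.066) and Ndufa6 (0.52 ± 0.076) rose. The 2 that fell were Uqcrc2 of complex III (3772 and 3694 without ethanol and 2418 and 2193 with it, -0.69 ± 0.072) and Ndufs1 of complex I (933 and 932 without ethanol and 634 and 656 with it, -0.52 ± 0.084).

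**Figure D3:**
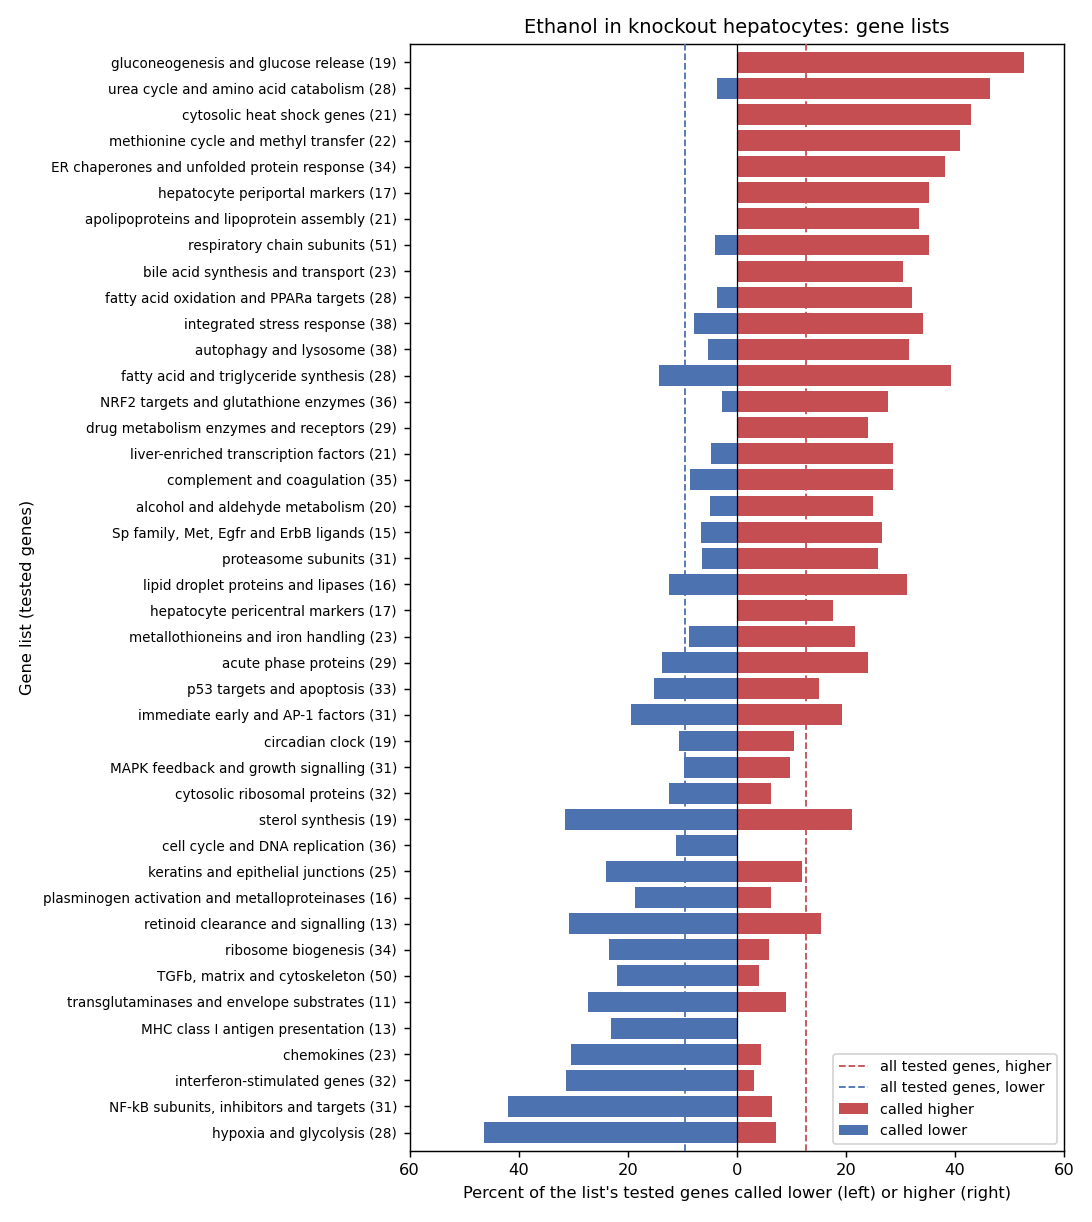
Percent of the tested genes of each of 42 lists that were called higher (red, to the right) or lower (blue, to the left) with ethanol in knockout cells; the number of tested genes is in brackets and the dashed lines mark all tested genes, 12.6% higher and 9.53% lower. The list of gluconeogenesis and glucose release has the largest share called higher (10 of 19), and hypoxia and glycolysis the largest share called lower (13 of 28); under trimmed-mean scaling the balance of acute phase, NRF2, proteasome and respiratory chain lists shifts toward lower.

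Several stress-response lists had more genes called higher than lower. The integrated stress response, in which phosphorylated eIF2-alpha favours translation of ATF4, had 13 genes higher and 3 lower of 38 (median 0.28). Ddit3, the factor CHOP, read 480.0 and 591 without ethanol and 1152 and 1037 with it (1.02 ± 0.15). Chac1, a glutathione-degrading ATF4 target, read 528 and 513 without ethanol and 1170.0 and 1232 with it (1.18 ± 0.095, adjusted p = 0.00024). Trib3, a pseudokinase, read 496 and 591 without ethanol and 980.2 and 1047 with it (0.88 ± 0.1) and Atf5 read 1043 and 1016 without ethanol and 1501 and 1547 with it (0.56 ± 0.075). The 3 that fell were Vldlr (-0.84 ± 0.15), Ndrg1 (-0.46 ± 0.089) and Ddit4 (-0.40 ± 0.093).

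Of 34 endoplasmic reticulum chaperones and unfolded protein response genes, 13 rose and none fell (median 0.21), or 13 and 3 under trimmed-mean scaling. In the knockout arrays alone 7 rose and 0 fell. The median was 0.22 on ethanol array A and 0.22 on B. Derl1 and Derl2, which act in export of misfolded proteins, changed by 0.68 ± 0.1 and 0.44 ± 0.076, and Sdf2l1 by 0.93 ± 0.16. Dnajc3, a co-chaperone, changed by 0.53 ± 0.078, with 1 of its 5 probe sets higher and another lower. Of 21 cytosolic heat shock genes, 9 rose and none fell (median 0.29), or 7 and 4 under trimmed-mean scaling. Hspb8, a small heat shock protein, read 1679 and 1709 without ethanol and 2509 and 3086 with it (0.71 ± 0.095), its partner Bag3 changed by 0.50 ± 0.1, and the HSP90 activator Ahsa1 by 0.35 ± 0.072. Hspa8, the constitutive HSP70, changed by 0.41 ± 0.056, but by -0.04 under trimmed-mean scaling. Only 1 of its 4 tested probe sets was called, and that one is of the type that may match other sequences.

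NRF2 targets and glutathione enzymes had 10 of 36 higher and 1 lower (median 0.11), or 6 and 10 under trimmed-mean scaling. Osgin1, an oxidative stress gene, read 1304 and 1391 without ethanol and 4255 and 3786 with it (1.56 ± 0.079, adjusted p = 2.6e-05) and had the largest change of the list's 4 named members. Gclc, the catalytic subunit of glutamate-cysteine ligase, read 2235 and 2184 without ethanol and 3753 and 2845 with it (0.56 ± 0.11), and Srxn1, sulfiredoxin, changed by 0.47 ± 0.088 with all 4 probe sets higher, though it was not called under trimmed-mean scaling (0.16). Sod2, mitochondrial superoxide dismutase, was the 1 gene that fell (6950.3 and 7046 without ethanol and 5726 and 5652 with it, -0.30 ± 0.066).

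Glycolytic and hypoxia-inducible genes fell more often than they rose, with 13 lower and 2 higher of 28 (median -0.31). From ethanol array A alone the counts were 14 lower and 4 higher, and from array B alone 10 and 2. Slc16a3, the lactate exporter MCT4, read 606 and 679 without ethanol and 282 and 340.0 with it (-1.01 ± 0.18). Higd1a, a hypoxia-inducible mitochondrial protein, read 7870.1 and 8052 without ethanol and 6373 and 5780.0 with it (-0.39 ± 0.066). Pgk1, phosphoglycerate kinase, changed by -0.34 ± 0.058, although a second probe set, the brightest over all 8 arrays, gave 0.15 and was not called. The 2 that rose were Epas1, which encodes HIF-2-alpha (0.57 ± 0.1), and Aldoa, the muscle-type aldolase (0.36 ± 0.067, not called under trimmed-mean scaling at 0.16).

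NF-kB is a transcription factor of innate immune responses, and its list holds subunits and inhibitors beside targets. Of 31 tested genes of the list, 13 fell, 2 rose and the others were not called (median -0.36), against 9.53% lower over all tested genes. Tnfaip3, the feedback inhibitor A20, read 4161 and 4222 without ethanol and 2193 and 2055 with it (-0.98 ± 0.086, adjusted p = 0.00033). Vcam1, a leukocyte adhesion molecule, read 1088 and 905 without ethanol and 261 and 352 with it (-1.66 ± 0.18, adjusted p = 0.00062). The other 11, named after their values were seen except for Nos2, Csf2 and Il23a, were Nos2, Csf2, Il23a, Csf3 (-1.67 ± 0.24), Ptgs2 (-1.41 ± 0.24), Il6 (-1.14 ± 0.34), Nfkbiz (-1.03 ± 0.13), Zc3h12a (-0.97 ± 0.22), Saa3 (-0.72 ± 0.13), Ikbke (-0.51 ± 0.1) and Sod2. Il6 was not called from ethanol array B alone (-0.82). The subunit gene Rela (1668 and 1659 without ethanol and 2765 and 2591 with it, 0.68 ± 0.073) and the atypical inhibitor gene Bcl3 (357 and 306 without ethanol and 805 and 678 with it, 1.12 ± 0.12) rose. The list's counts were 13 lower and 2 higher from ethanol array B alone, 14 and 2 from array A alone, and 14 and 2 in the knockout arrays alone.

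Of 23 chemokines, 7 fell and 1 rose (median -0.18). Ccl2, which attracts monocytes, read 12217 and 12333 without ethanol and 9373 and 8881 with it (-0.43 ± 0.064), and Ccl7, its near relative, read 5929 and 5562 without ethanol and 2674 and 2538 with it (-1.14 ± 0.13, adjusted p = 0.00068). Cxcl2, another neutrophil chemokine, read 12550.0 and 12107 without ethanol and 5645 and 7567 with it (-0.91 ± 0.12). Cxcl3, Ccl20, Cxcl9 (-0.73 ± 0.13) and Cxcl1 (-0.27 ± 0.066) were the other 4 that fell, and Ccl5 rose (0.39 ± 0.086). Cxcl1 was not called in the knockout arrays alone, and Ccl20 was tested only because its untreated arrays carried it past the filter on low signal.

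**Figure D4:**
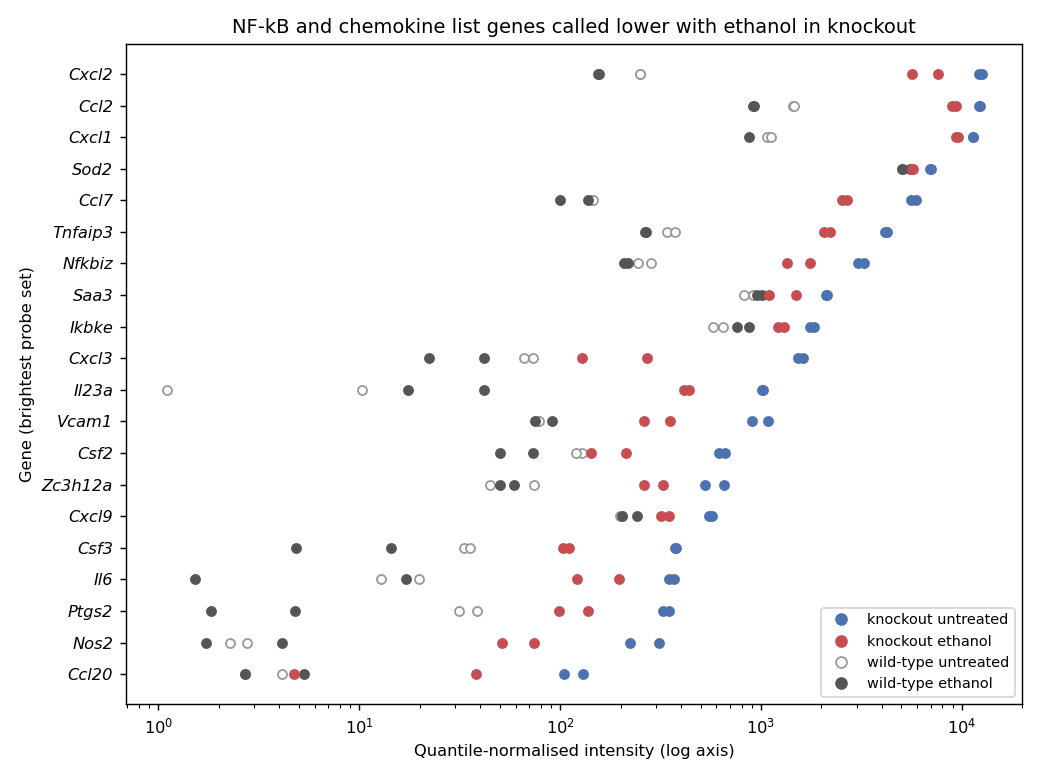
Quantile-normalised intensity (horizontal log axis) on each array of the 20 genes of the NF-kB and chemokine lists called lower with ethanol in knockout cells; blue points are untreated knockout, red points ethanol knockout, open grey points untreated wild type and dark grey points ethanol wild type. The red points lie below the blue ones in every row, and all wild-type points lie below the red ones in 19 rows, Ccl20 being the exception.

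Wild-type cells read far lower for many of these genes with or without ethanol. Ccl7 was 143 and 146 in untreated and 99.8 and 137 in ethanol-treated wild-type cells, and Cxcl2 was 249.8 and 249 and 157 and 154. The untreated knockout arrays serve both this contrast and the ethanol contrast, so the values are given side by side only. Macrophages, which make many of these mediators, were sought through 16 markers, whose summed signal was 6215 and 6252 without ethanol and 8992 and 8408 with it. Of the 12 tested, 3 rose (Cd14, Cd68 and Lyz2) and none fell, and Cd14 (4183 and 4304 without ethanol and 6098 and 5848 with it) and Cd68 (1255 and 1236 without ethanol and 1859 and 1633 with it) made up most of the sum. Clec4f, which defines Kupffer cells, read 75.1 and 75.8 without ethanol and 81.7 and 72.4 with it. The summed macrophage signal was higher on both ethanol arrays, while the mediators were lower, and its part in the result was not tested. In bulk samples fewer cells of a type and less RNA per cell cannot be told apart.

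Interferon-stimulated genes had 10 lower and 1 higher of 32 (median -0.28). Gbp2, a guanylate-binding protein, read 1264 and 1212 without ethanol and 693 and 595 with it (-0.93 ± 0.1), the GTPase gene Iigp1 changed by -0.42 ± 0.063 and the RNA sensor gene Ifih1 by -0.54 ± 0.094. Rsad2, the antiviral protein viperin, was the 1 higher (0.29 ± 0.06), but 2 of its 3 probe sets were called lower and trimmed-mean scaling gave -0.06. Among 29 acute phase proteins, 7 rose and 4 fell (median -0.05), or 5 and 12 under trimmed-mean scaling. Ahsg, fetuin-A, whose plasma level falls in inflammation, read 4262 and 3952 without ethanol and 7613 and 7269.8 with it (0.86 ± 0.07, adjusted p = 0.00025). Serpina3n (0.83 ± 0.1) and Itih4 (0.45 ± 0.064, 0.19 and not called under trimmed-mean scaling) also rose. Apcs, serum amyloid P, read 2420.3 and 2522 without ethanol and 1563 and 1532 with it (-0.67 ± 0.072), and Saa3, Il1rn (-0.91 ± 0.15) and Cp (-0.38 ± 0.066) were the other 3 that fell.

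Matrix, cytoskeletal and TGF-beta genes had 11 lower and 2 higher of 50 (median -0.09), against 9.53% and 12.6% over all tested genes. Beside Thbs1, Tpm1, tropomyosin 1, read 2899 and 3300.1 without ethanol and 1898 and 2136 with it (-0.62 ± 0.086) and Skil, a repressor of SMAD signalling, changed by -0.59 ± 0.085. Zyx, the focal adhesion protein zyxin, read 1100.0 and 1150.4 without ethanol and 2038 and 1790.0 with it (0.76 ± 0.082), and Itgb5, an integrin subunit, read 613 and 644 without ethanol and 1188 and 943 with it (0.74 ± 0.12).

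Of 11 transglutaminases and cornified envelope substrates, 1 rose, Tgm2 itself, and 3 fell (median 0.06). The shares over all tested genes were 12.6% higher and 9.53% lower. Ivl, involucrin, a classic transglutaminase substrate of skin, read 3016 and 2767 without ethanol and 1079.7 and 1230.1 with it (-1.31 ± 0.1, adjusted p = 0.00022). Sprr1b, a small proline-rich envelope protein, read 338 and 273 without ethanol and 103 and 106 with it (-1.41 ± 0.18). F13b, the carrier subunit of coagulation factor XIII, read 1349 and 1334 without ethanol and 686 and 1004 with it (-0.68 ± 0.17) and was not called from ethanol array B alone (-0.41).

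Among 15 genes of the Sp family, Met, Egfr and ErbB signalling, 4 rose and 1 fell (median -0.09). The shares over all tested genes were 12.6% higher and 9.53% lower. Hgfac, the protease that activates hepatocyte growth factor, read 1202 and 1296 without ethanol and 1905 and 1798 with it (0.56 ± 0.08). Gab1, an adaptor of Met and EGFR, read 91.1 and 103 without ethanol and 196 and 205 with it (0.94 ± 0.14) and Erbb3 read 72.3 and 87.9 without ethanol and 142 and 179 with it (0.87 ± 0.16). Egfr read 1006 and 1006 without ethanol and 1668 and 1322 with it (0.55 ± 0.13, adjusted p = 0.016), but of its 6 probe sets 1 was called higher and 1 lower, and it was not called from ethanol array B alone (0.39). Errfi1, a feedback inhibitor of EGFR, was the 1 that fell (-0.20 ± 0.06), but it lost its call under 12 of 23 alternatives, the knockout arrays alone among them.

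Immediate early and AP-1 factors were split, with 6 higher and 6 lower of 31 (median 0.14), against 12.6% and 9.53% over all tested genes. The growth arrest genes Gadd45a (1574 and 1396 without ethanol and 2520.3 and 3217 with it, 0.93 ± 0.13) and Gadd45g (0.76 ± 0.11) and the early gene Ier2 (0.64 ± 0.09) rose, and Myc fell (2543 and 2347 without ethanol and 1749 and 1692 with it, -0.50 ± 0.076). Of 21 liver-enriched transcription factors, 6 rose and 1 fell (median 0.30). Besides Foxa2, Hnf4a, a nuclear receptor that maintains hepatocyte identity, read 467 and 429.7 without ethanol and 819.9 and 704 with it (0.74 ± 0.098), Cebpa read 344 and 484 without ethanol and 1011 and 739 with it (1.05 ± 0.18) and Foxa3 changed by 0.53 ± 0.087. Sox9, a biliary factor, was the 1 that fell (1049 and 951 without ethanol and 785 and 686 with it, -0.44 ± 0.13), and it was not called from ethanol array A alone (-0.34).

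The cells carried hepatocyte markers throughout. The summed signal of 9 such markers was 111418 and 110827 without ethanol and 111531 and 108952 with it, and Alb, serum albumin, read 15400.5 and 16069.5 without ethanol and 16656 and 11796 with it. Such bright genes lie where quantile normalisation fixes the scale. Of the 9, 2 were called higher and 0 lower (median -0.09), but 2 higher and 3 lower under trimmed-mean scaling (median -0.64). Endothelial markers summed to 1071 and 1199 without ethanol and to 1110.0 and 1129 with it. Ethanol array A stood above the other 3 arrays in the stellate (1409 against 923 to 982), lymphocyte (1005 against 443 to 611) and neutrophil sums (421 against 251 to 298). Within the stellate list, Acta2 was high on array A alone (22.3 and 53.2 untreated, 273 and 22.7 with ethanol), and Ighm made up most of the lymphocyte sum. The cholangiocyte sum, mostly Sox9, was 1136 and 1049 without ethanol and 913 and 774 with it.

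The same treatment called fewer genes in wild-type cells, whose 4 arrays are separate from the knockout's. There 496 genes were called (4.31%), 221 higher (1.92%) and 275 lower (2.39%). The main fit took each gene's variance from both genotypes together, and the size of the gap depended on the fit. With each genotype fitted alone, 718 genes were called in wild type and 1409 in knockout. With array weights the counts were 1113 and 1740, without an intensity trend 43 and 1184, and without a filter 292 and 1979. In the main fit, of genes higher in wild type, 134 were higher in knockout too, which is 60.6% of the wild-type list and 9.22% of the knockout list. Of those lower, 128 were shared, 46.5% of the wild-type list and 11.7% of the knockout list. The 1453 genes that rose in knockout had a median change of 0.16 in wild type, and the 1098 that fell had -0.15. Across all tested genes the changes had a Pearson r of 0.249, as a description over genes that share array design and normalisation.

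A test of the difference between the responses, knockout minus wild type, called 508 genes (4.41%), with 324 above 0 (2.81%) and 184 below (1.60%). Among genes called in knockout, 254 of those that rose and 164 of those that fell also differed from wild type in that direction. This count rests on the variance prior, since without an intensity trend 1 gene, Ctse, was called, against 1941 at an unadjusted p under 0.05. It was 2316 without ethanol knockout array B, and leaving out any array other than those of ethanol-treated knockout cells left 64 to 137.

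The 5 most negative differences were in Serpinb2, Il23a, Cxcl3, Nos2 and Irak1. For Serpinb2 the difference was -2.40 ± 0.52 (adjusted p = 0.034), for Cxcl3 -2.10 ± 0.43 and for Nos2 -1.87 ± 0.42. Il23a, a subunit of interleukin 23, read 1023 and 1009.9 without ethanol and 412 and 438 with it in knockout and 10.3 and 1.1 then 17.5 and 41.7 in wild type, a difference of -2.28 ± 0.4 (adjusted p = 0.015). Serpinb2 (18.3 and 21.5 then 3.07 and 7.04), Nos2 and Il23a were near the bottom of the scale in wild-type cells, where a fall could hardly be measured. Cxcl3 was also dim there, at 73.4 and 65.8 then 22.2 and 41.6. The difference for Serpinb2 ranged from -2.99 to -1.80 over 22 alternatives and lost its call under 10 of them, among them an offset of 1 and leaving out any array other than those of ethanol-treated knockout cells. Nos2 lost its call for the difference under 12 of the 22, Cxcl3 and Irak1 under 8 each and Il23a under 6. Irak1, a kinase of interleukin 1 signalling, gave -1.87 ± 0.37, but only 1 of its 4 probe sets was called for ethanol in knockout. That probe set, like that of Tcl1b3, is of the type that may match other sequences.

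The largest positive differences were in Tcl1b3 (2.86 ± 0.35), Ctse, E2f5 (2.19 ± 0.43), Faim2 (2.19 ± 0.47) and Cnnm4. Of these, Faim2 passed the filter on low signal only through the knockout ethanol arrays. The difference lost its call under 8 of 22 alternatives for E2f5 and under 9 of 20 for Faim2. It did so under 2 of 22 for Tcl1b3 and for Cnnm4 and 1 of 22 for Ctse. Ctse, cathepsin E, read 148 and 143 without ethanol and 217 and 236 with it in knockout, where it was not called, and 62.6 and 77.1 then 1.1 and 4.0 in wild type, a difference of 2.79 ± 0.31 (adjusted p = 0.0028). Cnnm4, a magnesium transporter, read 223 and 229 without ethanol and 360.4 and 252 with it in knockout, also not called, and 251 and 238 then 72.6 and 64.3 in wild type. In both genes the difference came from the wild-type arrays. Ivl fell in both genotypes, from 1101 and 1093 to 128 and 115 in wild type, and the smaller fall in knockout gave a difference of 1.70 ± 0.14 (adjusted p = 0.0014).

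Metabolic genes were also among those that differed. Fasn rose in knockout while in wild type it read 1675 and 1737 then 1465 and 1467, a difference of 1.08 ± 0.11 (adjusted p = 0.0019). Slc25a47 and Apoa5 rose in both genotypes and by more in knockout, with differences of 1.08 ± 0.12 and 0.87 ± 0.1. Other genes rose or fell in both genotypes. Thbs1 changed by -2.14 in knockout and -2.11 in wild type, Ddit3 by 1.02 and 1.12, Cebpa by 1.05 and 1.05, Hilpda by -0.82 and -0.78, and Cyp2b10 by 1.46 and 1.08. Their differences were -0.03 ± 0.19, -0.11 ± 0.21, 0.00 ± 0.25, -0.04 ± 0.12 and 0.38 ± 0.14, none of which was called.

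**Figure D5:**
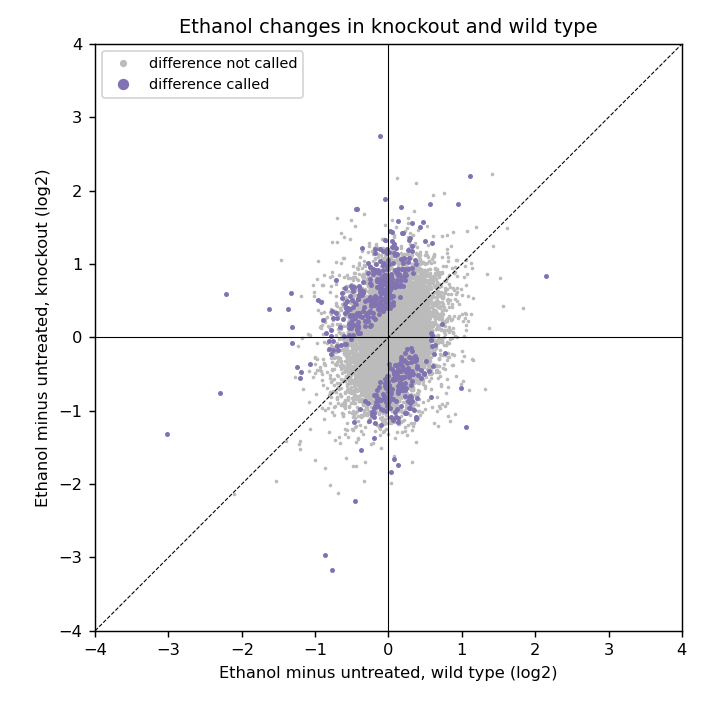
Change of each tested gene with ethanol in wild-type cells (horizontal axis, log2) and in knockout cells (vertical axis, log2); purple points are the 508 genes for which the difference between the changes was called, grey points the others, and the dashed line marks equal change. The points spread further along the knockout axis, and Tcl1b3 (2.74 against -0.12) and Serpinb2 (-3.17 against -0.77) lie at its 2 ends.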

How the data were processed

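The deposited values are linear intensities, 1 per probe set and array, as the values in the authors' table show. The software and scaling behind them, and a genome build, are not given in the sources. Of 45101 probe sets, 64 controls were left out of testing. On the B array of ethanol-treated wild-type cells 5410 values were unusable and were treated as missing in that array only, so that the fit dropped that array for those probe sets. Intensities were quantile normalised over the 8 arrays, with the map taken from 39627 complete probe sets, and log2(intensity + 16) was computed here from the deposited intensities, which understates changes of dim genes. The 22519 probe sets in the top 50% by mean over the knockout arrays were tested with limma 3.58.1 in R 4.3.3 on all 8 arrays (4 group means, trend in the variance prior, 4 residual and 5.55 prior degrees of freedom). P-values were adjusted by Benjamini-Hochberg over those probe sets within each of the contrasts.

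Symbols came from the platform annotation, updated from RefSeq: 34945 probe sets had 1 symbol (34741 matched), 932 several and 9160 none. A gene stands for its brightest probe set over the knockout arrays. Genes named were the 12 highest and 12 lowest changes, up to 4 members of each described list with the smallest adjusted p, the 5 highest and 5 lowest differences between genotypes, and 10 genes of the study's subject; members of small counts were added after their values were seen. The comparisons, the 42 gene lists and the 8 marker lists were chosen with earlier results of these data known. The fit was also tested on simulated data, whose means and spreads were taken from these arrays. The labels do not say what the letters A and B share, and deviations of A from B were hardly correlated between untreated and ethanol knockout arrays (r = 0.0239; 0.244 in wild type), so the fit blocked on the letter is given among the alternatives only.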

Additional observations from a re-analysis of the deposited data

Results flagged for a closer look

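For each gene given here, the ethanol response differed between knockout and wild-type cells by the test of the difference itself (adjusted p under 0.05). Values are knockout minus wild-type changes on the log2 scale, and without the intensity trend in the variance prior 1 gene in all, Ctse, was called for this difference. Among the largest changes, the differences were 2.86 for Tcl1b3, 2.79 for Ctse, 2.19 for E2f5, 2.19 for Faim2, 2.02 for Cnnm4, 1.94 for Ccdc180, 1.61 for Foxa2 and 1.25 for Gprin3.

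In metabolism, they were 1.08 for Slc25a47, 0.87 for Apoa5, 1.08 for Fasn, 0.70 for Thrsp, -0.96 for Insig1, 1.17 for Tm7sf2, -0.66 for Idi1, 0.81 for Cyp8b1, 0.87 for Scarb1 and 0.77 for Pltp. Amino acid and methyl transfer genes gave 0.63 for Gpt, 0.39 for Ahcy, 1.03 for Sardh, 0.89 for Gamt and 0.63 for Pemt. Detoxifying enzymes gave 0.55 for Aldh1l1, 0.75 for Aldh4a1, -0.47 for Aldh1a7, 0.78 for Cyp2d22, 0.44 for Gstm3 and 1.24 for Osgin1. Mitochondrial and glycolytic genes gave -0.69 for Uqcrc2, 0.52 for Ndufb8, -0.49 for Ndufs1 and 0.44 for Aldoa.

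Inflammatory genes gave -2.40 for Serpinb2, -2.28 for Il23a, -2.10 for Cxcl3, -1.87 for Irak1, -1.87 for Nos2, -1.77 for Ackr3, -1.73 for Vcam1, -0.91 for Ikbke, -0.90 for Saa3, -0.87 for Ccl7, -0.86 for Cxcl9, -0.79 for Gbp2, -0.73 for Ifih1, -0.61 for Iigp1 and -0.59 for Tnfaip3. Acute phase genes gave 0.91 for Serpina3n, 0.62 for Ahsg, -0.62 for Apcs and -0.46 for Cp. Stress and growth genes gave 0.87 for Chac1, 0.39 for Hspa8, 0.87 for Gadd45g, 0.62 for Ier2, 0.51 for Hgfac, -0.65 for Skil and 1.10 for Zyx. Involucrin gave 1.70 for Ivl. The value for Tgm2, 0.80, cannot tell whether its rise differed between genotypes. All 4 wild-type arrays read it near the top of the scale (16656 to 16836), where a rise could hardly be measured, though a fall could. Serpinb2, Nos2 and Il23a were near the bottom of the scale in wild-type cells, which limits any fall there. Ackr3 read 33.5 and 44.7 without ethanol and 23.2 and 24.7 with it in wild type. Cxcl3 read 73.4 and 65.8, then 22.2 and 41.6. Both thus came close to the dimmest tested mean, 22.5, which limits their fall as well.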

How the results depend on the processing

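The 2551 genes called in knockout cells (1453 higher, 1098 lower) fell to 1184 (709 and 475) without an intensity trend in the variance prior and to 1409 (814 and 595) in the 4 knockout arrays alone. With both B ethanol arrays left out the count was 4230 (2230 and 2000), and with both counted as untreated, as their treatment text reads, it was 191 (51 and 140). Leaving out each array in turn gave 940 to 4320 genes (604 to 2270 higher, 319 to 2050 lower). For the difference between genotypes (508 genes) the count was 285 without a filter, 1 without a trend, 1675 with both B ethanol arrays left out and 0 with both counted as untreated, where limma gave 1247 at an unadjusted p under 0.05, and 64 to 2316 with each array left out. For ethanol in wild type (496 genes) it was 292 without a filter, 43 without a trend, 1113 with array weights, 0 with both B ethanol arrays counted as untreated (330 at an unadjusted p under 0.05) and 96 to 1060 with each array left out. The replicate block gave 2832, 599 and 506 genes for knockout, difference and wild type, and changed no count by over 1.5 times; of the named genes Sp3 gained a call and none lost one. Other counts in knockout cells stayed within 1.5 times of 2551. They came from offsets of 1 and 64, the top 30% of probe sets, trimmed-mean scaling, the spike-in ratio split at 2 as a term and other rules for probe sets. Without a filter 1979 genes were called.

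Of 161 named genes followed over 23 alternatives, 3 changed direction: Hspa8 (-0.040) and Rsad2 (-0.057) under trimmed-mean scaling, and Pgk1 (0.15) with the brightest probe set over all arrays. The cause was not tested. Calls for ethanol in knockout cells were lost under 13 of the 23 alternatives for Elovl2 and for Sox9, 12 for Errfi1, 11 for Lpin1 and 10 for Il6. Trimmed-mean scaling moved the median of all genes in knockout cells from 0.04 to 0.10. With 2 arrays a group, in simulated data fewer small changes than large ones were recovered, so a gene not called may still have changed. The dimmest tested probe set had a mean intensity of 22.5.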

Other observations

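Counts for gene groups not described above are given beside the shares over all tested genes, 12.6% higher and 9.53% lower. Of 38 autophagy and lysosome genes, 12 rose and 2 fell with ethanol in knockout cells (median 0.21), and of 35 complement and coagulation genes 10 rose and 3 fell (median 0.11), or 5 and 4 under trimmed-mean scaling. Periportal hepatocyte markers had 6 of 17 higher and 0 lower (median 0.16), and pericentral ones 3 of 17 higher and 0 lower, or 3 and 5 under trimmed-mean scaling. Proteasome subunits had 8 higher and 2 lower of 31, or 3 and 4 under trimmed-mean scaling.

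Of 34 ribosome biogenesis genes, 2 rose and 8 fell (median -0.11), and of 36 cell cycle and DNA replication genes 0 rose and 4 fell (Mcm5, Mcm6, Ccne2 and Rfc3). Cytosolic ribosomal proteins had 2 of 32 higher and 4 lower, but 0 and 21 under trimmed-mean scaling. Under quantile normalisation the shares called lower among cell cycle and ribosomal protein genes, and the share called higher among pericentral markers, lie close to those over all tested genes. Retinoid clearance and signalling had 2 of 13 higher (Rxra and Rdh5) and 4 lower (Cyp26a1, Dhrs3, Rdh10 and Rarb), with a median of -0.29. Keratins and epithelial junctions had 3 higher and 6 lower of 25, and antigen presentation by MHC class I 0 higher and 3 lower of 13 (Erap1, Tapbp and Psmb8).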
